A study of Mus musculus with 15 samples.

Results

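The genes described here are the 6 mouse genes of the kininogen, carboxypeptidase N and bradykinin receptor families: the kininogens Kng1 and Kng2, the carboxypeptidase N subunits Cpn1 and Cpn2, and the bradykinin receptors Bdkrb1 and Bdkrb2. They were chosen by name around Cpn2, whose fall in cKO fat was already known from these counts, and were found by symbol among the 43352 genes of 1 table of read counts, and all 6 were present. A filter on low counts kept 5 of the 6, Cpn1 being the exception, and 19645 genes in all. The genotype differences of Cpn2 in both depots, the difference between them, and its depot differences in controls and cKO are therefore given as a description, without a test. Which measured values led to the choice of the other 5 is not recorded.

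The samples were perivascular adipose tissue (PVAT), the fat around blood vessels, of mice at 11 weeks of age, taken at the thoracic aorta (tPVAT) and the abdominal aorta (aPVAT). All animals carried the Prdm16flox allele, which leaves Prdm16 open to deletion by Cre recombinase, and those called cKO also carried AdipoQCre+, a Cre driven by the promoter of the adipocyte gene Adipoq. Controls carried Prdm16flox without the Cre. Messenger RNA was sequenced from 4 tPVAT control, 4 tPVAT cKO, 4 aPVAT control and 3 aPVAT cKO libraries (numbers 1, 3 and 4, with number 2 not analysed here). No label states that the libraries of a group came from separate animals, so the p-values measure only the spread between these libraries, which may be technical. Since this is bulk tissue, fewer cells of a type and less RNA per cell cannot be told apart.

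Kininogens are secreted proteins, made in large amounts by the liver, from which kallikreins cut the short peptide bradykinin. Bradykinin acts on the B2 receptor, which widens vessels through calcium and nitric oxide in endothelium, and carboxypeptidase N, a plasma enzyme of catalytic (Cpn1) and regulatory (Cpn2) subunits, removes its last arginine to give the preferred ligand of the B1 receptor. Mice have a pair of kininogen genes, and PVAT of the thoracic aorta resembles brown, heat-producing fat more than that of the abdominal aorta does.

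The kininogens lie beside each other on chromosome 16 (GRCm38; Kng2, 22985854 to 23029482, minus strand; Kng1, 23057865 to 23082078, plus strand), 28.4 kb apart. Both carry the 9 residues of bradykinin in exon 10 of 10 of the transcripts ENSMUST00000100046.8 (Kng2) and ENSMUST00000023589.14 (Kng1). The stretch that codes for them is shown because it is what makes either gene a source of kinin and because it shows how alike the genes are. Capitals mark the 27 bases that code for bradykinin (Kng1, chr16:23078989-23079015, plus strand; Kng2, chr16:22988281-22988307, minus strand), with 15 bases of flank on each side, in the sense of the gene and from the GENCODE M21 transcripts.
Kng1: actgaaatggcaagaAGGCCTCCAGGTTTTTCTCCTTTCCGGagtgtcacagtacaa
Kng2: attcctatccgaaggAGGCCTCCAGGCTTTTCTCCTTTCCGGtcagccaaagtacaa
These stretches differ at 14 of 57 bases, of which 1 lies within the 27 that code for bradykinin. Over the whole transcripts, 30.9% of the 25-base words of Kng1 also occur in Kng2, and 4.93% of its 100-base words do. Reads of one kininogen can therefore be counted for the other, and the read length is not given in the sources used here. Where both are described, the sum of their counts was fitted as well.

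Total counts ran from 37.8 M to 68.7 M a library. Levels are given as CPM, the counts of a gene scaled to a fixed total, adjusted between libraries by edgeR's trimmed mean of M-values (TMM). Differences are log2 fold changes, each with its standard error (SE), from edgeR's quasi-likelihood test, with Benjamini-Hochberg adjusted p-values over all 19645 genes and a threshold of 0.05. Prdm16, the targeted gene, stood at 47.3 ± 6.04 CPM (SD, n = 4) in tPVAT controls and 22.4 ± 1.07 (n = 4) in tPVAT cKO (log2 fold change −1.08, SE 0.097, edgeR adjusted p = 2.22e-06). In aPVAT it stood at 23.7 ± 2.22 CPM (n = 4) and 16.1 ± 1.99 (n = 3; −0.57, SE 0.105, edgeR adjusted p = 0.00992). That call was lost without aPVAT cKO library 1 (0.0692) or 3 (0.0591), and when only the aPVAT libraries were fitted (−0.55, edgeR adjusted p = 0.0739). Adipocyte genes were high in all 4 groups: the summed level of 12 adipocyte markers lay between 18800 and 31500 CPM. In 2 libraries, aPVAT cKO 4 (2.24%) and aPVAT control 2 (0.929%), nuclear structural RNA genes took more of the counts than in the other 13 (0.0704% to 0.213%), and aPVAT cKO 4 was also the shallowest.

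Kng2 was the more abundant kininogen message in every group, and it was lower in cKO than in control fat of both depots. In counts, the tPVAT controls held 3350, 2989, 2692 and 2352 and the tPVAT cKO libraries 1531, 1151, 1818 and 1584. That is 59.5 ± 5.61 CPM (SD, n = 4) against 28.3 ± 7.07 (n = 4), every cKO library being below every control library. Of the members other than Cpn2, whose fall was already known, Kng2 and Bdkrb1 did not overlap, beside 23.2% of all genes. The difference of Kng2 was −1.07 on the log2 scale (SE 0.26, edgeR adjusted p = 0.0125). The aPVAT controls held 351, 149, 409 and 189 counts of Kng2, and the aPVAT cKO libraries 72, 90 and 9. Their levels of 3.41 ± 1.3 CPM (n = 4) and 0.694 ± 0.452 (n = 3) again did not overlap. Of the members other than Cpn2 this held for Kng2 alone, beside 9.56% of all genes. For Kng2, aPVAT cKO 4 was the lowest of all 15 libraries at 0.193 CPM. The difference of Kng2 in aPVAT was −2.19 (SE 0.371, edgeR adjusted p = 0.00536). It was −2.01 (edgeR adjusted p = 0.0063) without the pair of libraries rich in structural RNA. The call was lost when only the aPVAT libraries were fitted (−2.22, edgeR adjusted p = 0.129) and under limma voom with a weight for each library (−2.13, adjusted p = 0.0861), and over all 10 alternatives the adjusted p ran from 9.82e-06 to 0.129.

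**Figure D1:**
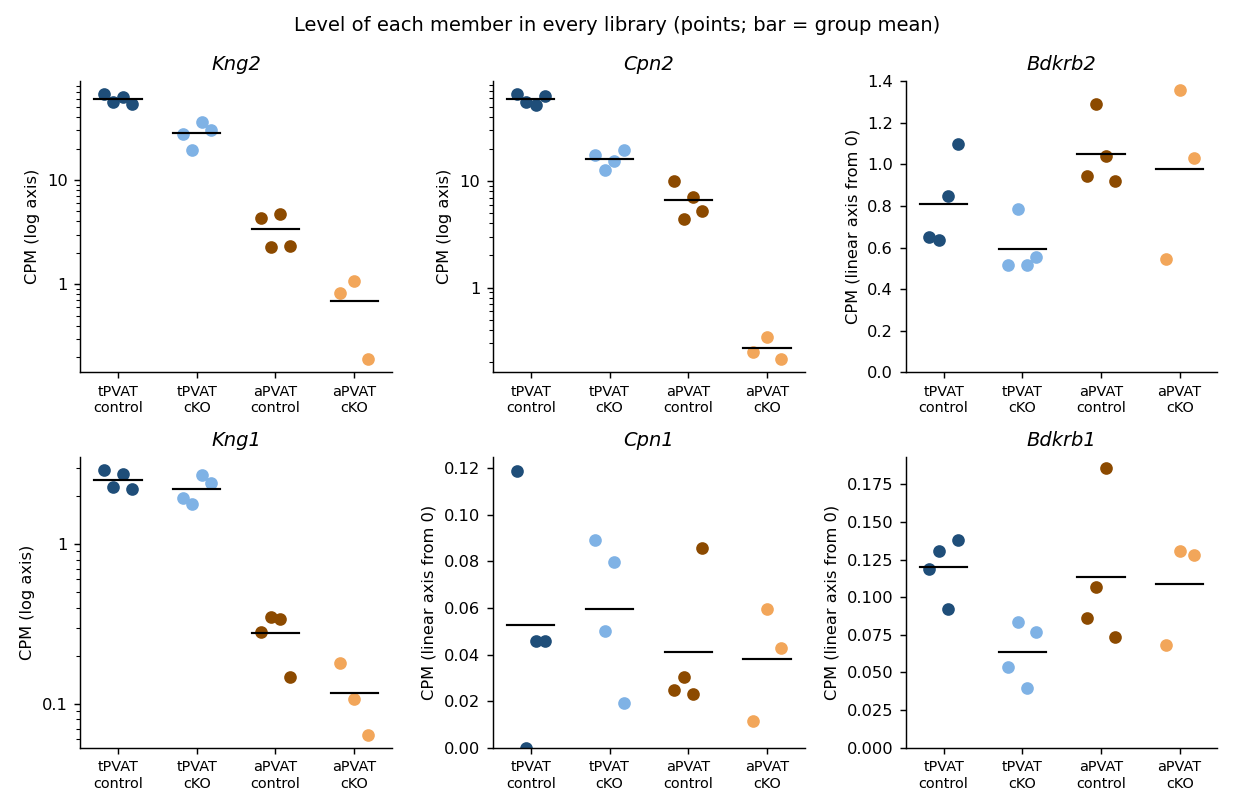
Levels of the 6 genes in CPM in every library (points) with the group mean (bar), by group. The axes of Kng2, Cpn2 and Kng1 are logarithmic, those of the others linear from 0. Kng2 and Cpn2 step down from tPVAT control to tPVAT cKO, aPVAT control and aPVAT cKO without overlap of neighbouring groups, Kng1 differs between the depots, and for Cpn1 and both receptors the groups next to each other in level overlap.

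Kng1 differed between the depots and was not called between the genotypes. Its counts were 147, 121, 120 and 96 in tPVAT controls, 109, 106, 136 and 126 in tPVAT cKO, 23, 23, 29 and 12 in aPVAT controls, and 16, 9 and 3 in aPVAT cKO. The genotypes overlapped within each depot, whereas all 8 tPVAT libraries (at least 1.77 CPM) stood above all 7 aPVAT libraries (at most 0.35 CPM). Kng1, Kng2 and Cpn2, 3 of the 6 genes, did not overlap between the depots in controls (49.5% of all genes) or in cKO (55.0%). For Cpn2 this is a description only. Genotype differences of Kng1 did not pass in tPVAT (−0.2, SE 0.218, edgeR adjusted p = 0.609) or in aPVAT (−1.13, SE 0.351, edgeR adjusted p = 0.155). Per kilobase of exon, tPVAT controls had 21.8 CPM per kb of Kng2 and 0.779 of Kng1. In tPVAT cKO these levels were 10.3 and 0.68 CPM per kb.

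The makeup of the kininogen counts was read as the share of Kng1 in the sum of both genes, a comparison added after the values were seen. It was 4.2%, 3.89%, 4.27% and 3.92% in tPVAT controls and 6.65%, 8.43%, 6.96% and 7.37% in tPVAT cKO. The groups did not overlap, and the means were 4.07% ± 0.192 (SD, n = 4) and 7.35% ± 0.779 (n = 4). An exact two-sided permutation test gave p = 0.0286, and 0.0571 adjusted over the 2 depots. With 4 against 4 libraries already seen not to overlap, the test could give no other value, so it adds nothing to the separation. The share also holds the fall of Kng2 given above and is not a separate result. In aPVAT the shares ran from 5.97% to 13.4% in controls and from 9.09% to 25% in cKO, overlapped, and rested on as few as 12 kininogen counts in a library (exact two-sided permutation p = 0.114). With the counts of both genes summed before the fit, kininogen as a whole differed by −1.03 in tPVAT (SE 0.252, edgeR adjusted p = 0.0137) and −2.09 in aPVAT (SE 0.352, edgeR adjusted p = 0.00516).

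**Figure D2:**
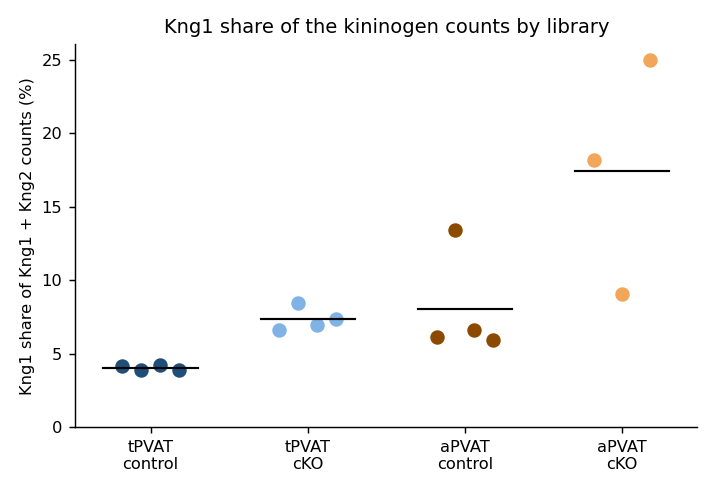
Share of Kng1 in the summed counts of Kng1 and Kng2 (percent, linear axis from 0) in every library (points) with the group mean (bar). The 4 tPVAT cKO libraries lie between 6.65% and 8.43%, above the 4 tPVAT controls at 3.89% to 4.27%, and the aPVAT groups overlap.

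Cpn2, the regulatory subunit that carries and stabilises the catalytic subunit of carboxypeptidase N, lies on chromosome 16 (30256378 to 30267499, minus strand). Its tPVAT counts were 3300, 2936, 2272 and 2740 in controls and 971, 768, 767 and 1019 in cKO. In aPVAT they were 807, 290, 611 and 423 in controls and 22, 29 and 10 in cKO. Neither depot showed any overlap between the genotypes. The levels were 58.8 ± 6.23 CPM (SD, n = 4) in tPVAT controls, 16.2 ± 2.88 (n = 4) in tPVAT cKO, 6.65 ± 2.45 (n = 4) in aPVAT controls and 0.27 ± 0.068 (n = 3) in aPVAT cKO. As a description, the genotype difference was −1.86 (SE 0.196) in tPVAT and −4.58 (SE 0.317) in aPVAT. The aPVAT difference minus the tPVAT difference was −2.72 (SE 0.381), which is likewise a description, since both were known when the gene was chosen.

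Cpn1, the subunit that holds the active site (chromosome 19, 43956307 to 43986556, minus strand), was at the limit of detection. Its counts were 0 to 6 in tPVAT controls, 1 to 5 in tPVAT cKO, 2 to 7 in aPVAT controls and 1 to 5 in aPVAT cKO, and 0 in tPVAT control 2 allows up to 0.0562 CPM (3 counts). No library reached 0.12 CPM. The catalytic and the regulatory message thus stood far apart in tPVAT controls, at 0.0143 CPM per kb of Cpn1 and 12.9 CPM per kb of Cpn2. A difference of Cpn1 between the groups was not detectable at this depth: without the low-count filter its edgeR log2 fold changes were 0.18 (SE 0.787) for genotype in tPVAT and −0.15 (SE 0.833) in aPVAT.

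The receptor genes lie 7.85 kb apart on chromosome 12 (Bdkrb2, 105563226 to 105595237; Bdkrb1, 105603085 to 105605428; both on the plus strand) and were expressed at low levels. Bdkrb2, the B2 receptor of intact bradykinin, had 33, 34, 37 and 48 counts in tPVAT controls and 29, 47, 26 and 29 in tPVAT cKO. In aPVAT it had 77, 85, 90 and 75 counts in controls and 48, 114 and 48 in cKO. Neighbouring groups overlapped, and the highest and lowest group means were 1.05 ± 0.171 CPM (SD, n = 4, aPVAT controls) and 0.594 ± 0.128 (n = 4, tPVAT cKO). Neither genotype difference passed (−0.43, SE 0.279, edgeR adjusted p = 0.356 in tPVAT; −0.11, SE 0.274, edgeR adjusted p = 0.904 in aPVAT). Bdkrb1, the B1 receptor of the arginine-trimmed kinin, had 2 to 16 counts a library. Its group means lay between 0.0634 ± 0.0203 CPM (n = 4, tPVAT cKO) and 0.12 ± 0.0202 (n = 4, tPVAT controls). The tPVAT difference of Bdkrb1 was −0.89 (SE 0.433, edgeR adjusted p = 0.213), with no overlap between the groups but 2 to 7 counts a library. In aPVAT it was −0.09 (SE 0.39, edgeR adjusted p = 0.944).

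Across the depots the ligand precursors and Cpn2 were lower in aPVAT, and the receptors were not called. In controls, aPVAT stood below tPVAT by −4.12 for Kng2 (SE 0.297, edgeR adjusted p = 1.1e-08) and −3.18 for Kng1 (SE 0.253, 3.32e-08). The corresponding differences in cKO were −5.23 for Kng2 (SE 0.382, edgeR adjusted p = 1.93e-08) and −4.12 for Kng1 (SE 0.319, 3.73e-08). That of Cpn2 in cKO was −5.86 (SE 0.317). It is a description, since it uses the cKO libraries in which the fall of Cpn2 was already known. The receptors gave 0.38 (Bdkrb2, SE 0.264, edgeR adjusted p = 0.232) and −0.08 (Bdkrb1, SE 0.378, edgeR adjusted p = 0.881) in controls. In cKO they gave 0.7 (SE 0.288, edgeR adjusted p = 0.0505) and 0.72 (SE 0.446, edgeR adjusted p = 0.204). For Bdkrb2 the depot difference in cKO lay beside the threshold and depended on single libraries. It passed without tPVAT cKO 2 (0.87, edgeR adjusted p = 0.0296) or aPVAT cKO 1 (1.01, 0.00476), and was 0.36 (0.356) without aPVAT cKO 3. The genotype and depot differences share libraries, so the falls in the separate contrasts are not independent of each other. Neither the interaction of Kng2 (−1.11, SE 0.452, edgeR adjusted p = 0.456) nor that of Kng1 (−0.94, SE 0.413, edgeR adjusted p = 0.522) passed, so a larger genotype difference in aPVAT was not shown for the kininogens.

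**Figure D3:**
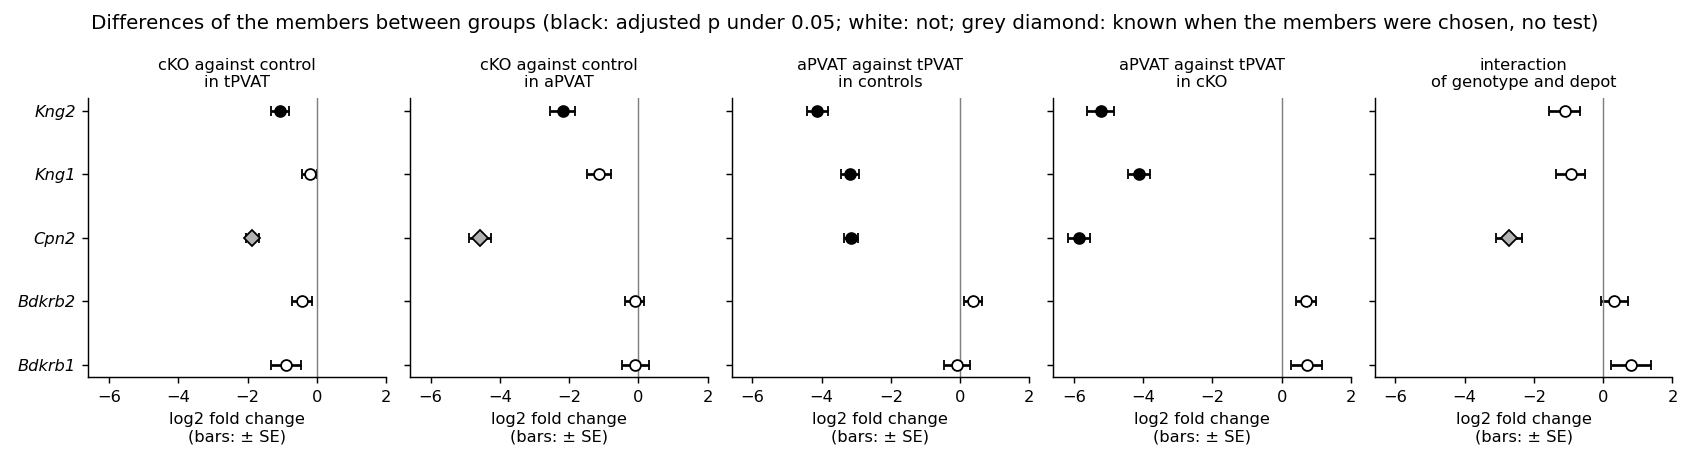
Log2 fold changes (points) with their SE (bars) of the 5 tested genes in the genotype contrasts of each depot, the depot contrasts of each genotype and the interaction. Black points passed the adjusted p threshold of 0.05, white points did not, and grey diamonds mark the genotype differences of Cpn2 and their difference between the depots, which have no test. The points of Cpn2 in both depot contrasts are drawn black but are likewise a description. Kng2 passed in all 4 single contrasts, Kng1 in the depot contrasts only, and the receptors in none.

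Read against all genes and with Cpn2 left out, 1 of the other 4 tested members, Kng2, was called in tPVAT between the genotypes, where 12% of all genes were (6.61% lower). In aPVAT it was again Kng2 alone of the 4, where 1.53% of all genes were called (0.789% lower). Between the depots 2 of the 4, Kng1 and Kng2, were called in controls (56.6% of all genes, 27.3% lower) and again in cKO (52.6%, 25.4% lower), so these counts stand near the background. All of these calls were lower. The interaction called 0 of the 4 by edgeR (2 at an unadjusted p under 0.05) and 0 by DESeq2, and 0.784% of all genes by edgeR (0.626% lower). The medians over the 4 were −0.66 and −0.62 for genotype in tPVAT and aPVAT, and −1.63 and −1.71 for depot in controls and cKO. The corresponding medians over all genes tested were −0.01, −0.01, 0.04 and 0.04.

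Ordered by level, Kng2 and Cpn2 followed the same sequence of groups: tPVAT control, tPVAT cKO, aPVAT control and aPVAT cKO, with no overlap between neighbours. The means of Kng1, and of Ucp1, Cox8b and Pdk4 among other genes, fell in this order too. The share of all genes with this order was not counted, and the genotype steps of Cpn2 were known when it was chosen. The steps of Kng2 and Cpn2 differed in size. For Kng2 the ratios of neighbouring means were 2.1, 8.29 and 4.92, so its largest step lay between tPVAT cKO and aPVAT control. For Cpn2 they were 3.62, 2.44 and 24.7, and its largest step separated the genotypes of aPVAT. Per kilobase, Cpn2 stood at 0.507 to 0.7 of Kng2 in tPVAT controls, 0.254 to 0.401 in tPVAT cKO, 0.898 to 1.38 in aPVAT controls and 0.184 to 0.668 in aPVAT cKO. Within tPVAT the Pearson correlation of their log2 CPM was 0.934 over 8 libraries, and within aPVAT 0.9 over 7, both of which span the genotype difference.

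The genes most like these in pattern were searched among 11885 genes by Pearson correlation of log2 CPM over the 15 libraries, which the 4 groups dominate. Nearest to Cpn2 were Car14, a carbonic anhydrase (r = 0.988), Cpt1b, which carries fatty acids into mitochondria (0.973), the cytochrome oxidase subunit Cox7a1 (0.968), Ucp1, the uncoupling protein of brown fat (0.966), and the proton channel Otop1 (0.963). All 5 belong to the list of 20 thermogenic adipocyte markers. That list was drawn up with earlier results of these data known, and the pattern of Cpn2 holds the genotype differences behind its choice. The match is therefore a description. Nearest to Kng2 were the thioesterase Acot11 (0.981), the cytochrome oxidase subunit Cox8b (0.981), Pdk4, a kinase that restrains pyruvate use (0.979), Otop1 (0.979) and the lipoprotein phospholipase Pla2g7 (0.978), of which Cox8b and Otop1 are in that list. Car14 fell in the same order of groups as Cpn2, with means of 26.9, 8.79, 2.63 and 0.206 CPM in the 4 groups from tPVAT control to aPVAT cKO. Nearest to Kng1 were Aste1 (0.989), Car13 (0.987), Dnajc15 (0.987), Pank1 (0.985) and Rmdn1 (0.983), none of them in the list. Likeness was looser for the receptors, with at most 0.91 for Bdkrb2 (Maml3) and 0.82 for Bdkrb1 (Nipal3).

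**Figure D4:**
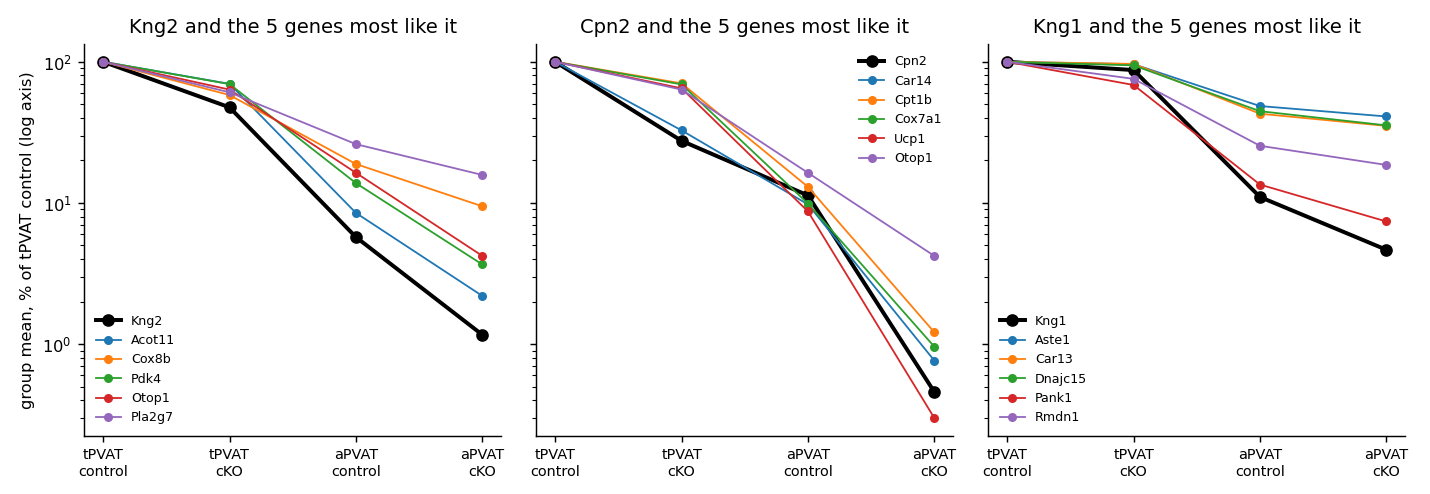
Group means as a percentage of the tPVAT control mean (logarithmic axis) for Kng2, Cpn2 and Kng1 (black) and the 5 genes most like each (colours), by group. Cpn2 reaches 27.6% in tPVAT cKO, 11.3% in aPVAT control and 0.458% in aPVAT cKO, and Car14 follows at 32.7%, 9.75% and 0.765%.

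The summed level of the 20 thermogenic markers followed the same order of groups as Kng2 and Cpn2. The sum ran from 10700 to 11500 CPM in tPVAT controls, 7010 to 8640 in tPVAT cKO, 1170 to 1720 in aPVAT controls and 494 to 546 in aPVAT cKO. In tPVAT it was led by Ucp1, at 6260 CPM in controls and 4060 in cKO. Ucp1 was not called between the genotypes of tPVAT (−0.62, SE 0.543, edgeR adjusted p = 0.508) but was in aPVAT (−4.84, edgeR adjusted p = 0.00169). Its SDs within tPVAT were 277 (controls) and 417 CPM (cKO), small beside the gap between these means. The fit also took in aPVAT cKO, where the SD of Ucp1 exceeded its mean (18.8 ± 25.1 CPM). The missing call therefore does not show that Ucp1 was unchanged in tPVAT. Between the genotypes 7 of the 20 were lower, 1 higher and 12 not called in tPVAT (6.61% of all genes lower). In aPVAT 14 were lower and 6 not called (0.789% of all genes lower). Other marker sums also moved with genotype. In tPVAT the sum of the 12 adipocyte markers stood higher in cKO without overlap (18800 to 19900 CPM in controls, 25500 to 26500 in cKO), and those of 10 endothelial (1080 to 1240 and 963 to 1030), 10 smooth muscle (2470 to 3180 and 2130 to 2310) and 10 mast cell markers (67.3 to 86.8 and 60.2 to 62.4) stood lower without overlap. In aPVAT the mast cell sum did too (96.3 to 128 and 77.3 to 96.1), while the adipocyte sum overlapped (23600 to 26100 and 25600 to 31500). Of all single genes, 23.2% did not overlap between the genotypes of tPVAT and 9.56% between those of aPVAT. In tPVAT 5 of the 12 adipocyte markers were called higher, among them Cfd (1920 to 4590 CPM) and Fabp4 (6980 to 9020). Called lower there were 3 of 10 endothelial, 1 of 10 smooth muscle and 2 of 9 tested mast cell markers. Of all genes 12% were called in tPVAT (6.61% lower), so the smooth muscle count stands near the background. The part of these sums in the differences of Kng2 and Cpn2 was not tested. Kininogen and carboxypeptidase N are classic liver products, so liver and kidney markers were read beside them. Of 18 hepatocyte markers, 17 summed to 5.05 to 20 CPM in tPVAT controls, 10.6 to 28 in tPVAT cKO, 9.89 to 16.4 in aPVAT controls and 13.6 to 20.5 in aPVAT cKO. Their ranges overlapped between the genotypes of each depot, Alb (albumin) leading them with at most 8.86 CPM, while Fgb and Hrg did not exceed 0.712 and 0.2. Of the 17, Serpina1a was called higher in cKO of tPVAT (0.684 to 3.58 CPM, 2.38, SE 0.165, edgeR adjusted p = 1.24e-07) and aPVAT (1.14 to 1.96 CPM, 0.77, edgeR adjusted p = 0.0222), and Serpina1c in tPVAT (0.828 to 2.29 CPM, 1.46, edgeR adjusted p = 0.000273). The 18th, Cyp2e1, which was set apart after its values were seen, rose from 556 to 1510 CPM in tPVAT (1.45, SE 0.128, edgeR adjusted p = 1.87e-06) and stood at 4030 and 4390 in aPVAT controls and cKO. Of 12 kidney markers, Umod and Slc22a6 were at 0 in all 15 libraries, and the summed level, led by Lrp2, was at most 17.5 CPM.

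Promoter windows of RefSeq (GRCm38.p6, 250 bases before to 50 after a transcription start) were given for 4 of the 6 genes: Kng2, Cpn1, Cpn2 and Bdkrb2. Those of Cpn2 and Kng2 are shown because both genes were lower in cKO fat of both depots (Cpn2, chr16:30267483-30267782; Kng2, chr16:23029052-23029351; both minus strand, in the sense of the gene). The window of Kng2 lies inside the GENCODE M21 gene, which reaches to 23029482. Capitals mark exact matches, on either strand, of the nuclear receptor motifs AAGGTCA and AGGTCA and of the C/EBP motif TTGCNNAA.
Cpn2: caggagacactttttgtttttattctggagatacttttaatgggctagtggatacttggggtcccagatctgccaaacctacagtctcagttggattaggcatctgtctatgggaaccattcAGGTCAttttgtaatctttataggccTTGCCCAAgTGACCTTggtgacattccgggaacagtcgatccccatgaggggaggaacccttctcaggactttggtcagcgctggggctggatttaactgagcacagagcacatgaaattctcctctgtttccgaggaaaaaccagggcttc
Kng2: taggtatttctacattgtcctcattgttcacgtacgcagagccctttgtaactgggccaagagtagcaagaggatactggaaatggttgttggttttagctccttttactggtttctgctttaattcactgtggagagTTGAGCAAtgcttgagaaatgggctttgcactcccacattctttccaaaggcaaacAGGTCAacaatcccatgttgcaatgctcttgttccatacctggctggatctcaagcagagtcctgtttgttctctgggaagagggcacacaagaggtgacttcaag
Counted from the start, Cpn2 held AGGTCA from base −128, the C/EBP motif from −102 and, on the opposite strand from −93, AAGGTCA, which contains AGGTCA. Kng2 held the C/EBP motif on the opposite strand from −112 and AGGTCA from −56. Of 32851 RefSeq windows of the same length, 4.72% held AAGGTCA, 16.3% held AGGTCA and 10.8% held TTGCNNAA. The windows of Cpn1 and Bdkrb2 held none of the 3. Also searched were CCCNNGGG (EBF), present in Cpn1 and Bdkrb2 and in 13.7% of all windows, TATAAA, present on the opposite strand of Cpn2 from −112 and in 13.6%, and TGACG and GGGCGG, present in none of the 4 windows and in 20.8% and 35.7%. A match is a run of letters and not a site of binding.

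Kng2 and Kng1 are nearest neighbours, as are the receptors. Of the nearest tested protein-coding neighbours outside the 6 genes, Hes1 in tPVAT was the only one called lower between genotypes. Eif4a2, a translation factor 25.4 kb from Kng1, rose in cKO of both depots (0.58 in tPVAT, edgeR adjusted p = 2.47e-05; 0.49 in aPVAT, edgeR adjusted p = 0.00125). Fetub, a secreted relative of the kininogens 46.1 kb from Kng2, was not called between genotypes (0.36 and −0.92, edgeR adjusted p = 0.251 and 0.0858). Lrrc15, a membrane protein gene 1.8 kb from Cpn2, gave 0.24 in tPVAT (edgeR adjusted p = 0.544) and −0.01 in aPVAT (0.997). On the other side of Cpn2, Hes1, which encodes a transcriptional repressor and lies 189 kb away, gave −0.35 (edgeR adjusted p = 0.018) and −0.09 (0.722). Atg2b and D430019H16Rik beside the receptors, and Dnmbp and Cyp2c23 beside Cpn1, were not called between the genotypes in either depot. In GENCODE M21 the pseudogene Gm6493, in an intron of Kng2 on its strand, is the only gene that overlaps any of the 6.

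The rest of the kinin pathway, read from lists of 51 genes of which 45 were tested, was called between the genotypes about as often as all genes were. In tPVAT 2 of the 45 were higher and 4 lower (12% of all genes called), and in aPVAT 1 was lower (1.53%). All but 1 of those that passed come from the list of 16 signalling genes below the receptors. Whether their changes have to do with the bradykinin receptors was not tested. Itpr2 and Itpr1, calcium channels of the endoplasmic reticulum that open to inositol trisphosphate, fell in tPVAT from 171 to 101 CPM (−0.76, SE 0.075, edgeR adjusted p = 5.81e-06) and from 222 to 144 CPM (−0.63, SE 0.0703, 2.13e-05). Itpr2 also fell in aPVAT, from 51.7 to 30.5 CPM (−0.76, SE 0.0826, edgeR adjusted p = 9.6e-05). The phospholipases that make inositol trisphosphate moved in opposite directions in tPVAT. Plcb1 rose (0.74, edgeR adjusted p = 0.00459) and Plcb3 fell (−0.41, 0.000332). Plcb2 was called higher (0.61, edgeR adjusted p = 0.0499), a call lost without any 1 of the 8 tPVAT libraries (adjusted p 0.0643 to 0.144). The sixth, the cystatin Cst3, a protease inhibitor related to kininogen, was lower by a small margin (−0.24, edgeR adjusted p = 0.033) and lost its call without 7 of the 8 libraries (adjusted p up to 0.0898).

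Carboxypeptidase N aside, none of the tested enzymes that make or break kinins was called between the genotypes in either depot by edgeR. Of the makers, Prcp, which helps activate prekallikrein, stood at 17.8 and 16.2 CPM in tPVAT controls and cKO, and the tissue kallikrein Klk1 at 0.0799 and 0.103 CPM. Neither reached an unadjusted p of 0.05 between genotypes by edgeR or DESeq2. F12 and F11, factors of the plasma contact system, did not pass the filter, with means of at most 0.031 CPM. Klkb1, plasma kallikrein, was not analysed here. None of the 14 tested kinin-degrading peptidases was called in tPVAT or aPVAT (1 at an unadjusted p under 0.05 in each depot by edgeR, 0 called by DESeq2). The kinin-degrading enzyme Ace stood at 136 ± 6.43 CPM (SD, n = 4) and 124 ± 7.49 (n = 4) in tPVAT controls and cKO. Among 3 tested inhibitors of the contact system, 0 were called by edgeR (0 in tPVAT and 1 in aPVAT at an unadjusted p under 0.05) and 0 by DESeq2. Of 7 carboxypeptidases related to Cpn1, 0 were called by edgeR in either depot (2 in each at an unadjusted p under 0.05). DESeq2 called Cpe lower in tPVAT and Cpxm1 lower in aPVAT. In the interaction 0 of the 45 genes were called by edgeR (4 at an unadjusted p under 0.05) and 0 by DESeq2.

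**Figure D5:**
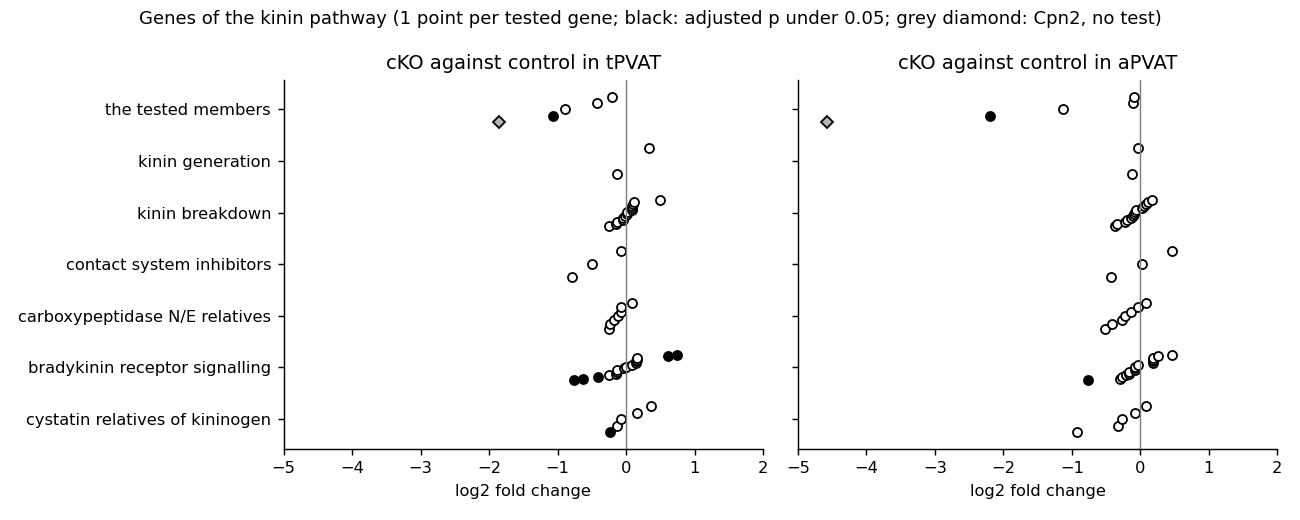
Log2 fold changes of cKO against control (1 point a gene, linear axis) for the tested members and the genes of the 6 kinin pathway lists, in tPVAT (left) and aPVAT (right). Black points passed the adjusted p threshold of 0.05, white points did not, and the grey diamond is Cpn2, which has no test. The black points of the lists lie between −0.76 and 0.74, nearer 0 than Kng2 at −1.07 and −2.19.

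Between the depots of control mice the same lists held 22 genes higher and 11 lower in aPVAT (56.6% of all genes were called). By smallest p, the kinin-degrading Cpm (−1.36, edgeR adjusted p = 2.52e-08) and Mme, also called neprilysin (−1.47, 9.14e-06), were lower in aPVAT, and Anpep was higher (0.75, 2.96e-06). The carboxypeptidase relatives Cpxm1 (1.6, edgeR adjusted p = 7.35e-09) and Cpz (1.92, 8.73e-07), the arrestin Arrb2 (0.92, 5.98e-08), Prcp (0.93, 3.93e-08) and the C1 inhibitor Serping1 (0.9, 3.77e-05) were higher. Itpr2 (−1.72, edgeR adjusted p = 1.22e-10) and Itpr1 (−1.15, 1.8e-09) were lower. Among the cystatins, Fetub (−1.37, edgeR adjusted p = 2.75e-05) and Cstb (−0.23, 0.00468) were lower and Cst6 (1.22, 0.00626) higher, Cstb turning to 0.52 when libraries were scaled by total counts alone. A2m was lower (−1.22, edgeR adjusted p = 0.0181), a call lost without aPVAT control 4 (0.0548), tPVAT control 2 (0.0574) or tPVAT control 3 (0.0584) and with total counts (−0.49, 0.276), and Serpinc1 (−1.11, 0.0782) and Klk1 (0.55, 0.424) did not pass.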

How the data were processed

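RNA was sequenced from 15 libraries of mouse PVAT in 4 groups, which were taken from the labels. The authors deposited 1 table of raw read counts per Ensembl gene. Per the submitters' processing notes the build was mm10, with Salmon, Subread and DESeq2 1.42.1 named without a role. Counting tool, annotation and strand setting: not given in the sources used here. Symbols from GENCODE M21 matched 42468 IDs (98.0%).

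In R 4.3.3, edgeR 4.0.16 kept genes by filterByExpr (minimum count 10), scaled libraries by TMM and fitted 1 mean per group over all 15 libraries, with the SE taken as |log2 fold change| / √F. The fit was run on simulated counts in which only tPVAT cKO differed, and only in some genes. That setting holds no depot difference, so it is no check on the depot contrasts. Chi-square tests found no pair of libraries alike within sampling noise. Likeness used log2 CPM with a prior count of 2 and genes of mean log2 CPM of at least 1, without predicted genes. Alternatives were DESeq2 1.42.0, limma 3.58.1, other scalings, filters, blocks and sets of libraries. The text names the members, genes of the fixed lists called between genotypes or of the 3 smallest p between depots, the 5 genes most alike, the neighbours, and markers that lead or are at 0. Ace, F12, F11, Cpe, Fgb, Hrg, Serpina1a and Serpina1c were named after their values were seen. The members and lists were chosen with earlier results of these data known.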

Additional observations from a re-analysis of the deposited data

Results flagged for a closer look

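Cpn1 stood at 0.0858 CPM in aPVAT control 4, from 7 counts, and at 0.0232 to 0.0305 in the other 3 libraries of that group. Bdkrb2 stood at 0.784 CPM in tPVAT cKO 2 and at 0.517 to 0.556 in the other 3. These are 2 of 18 groups of 4 libraries read for a library far from the rest, and chance alone marks about 1 in 20.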

How the results depend on the processing

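Over 10 or 11 alternatives and the libraries left out 1 at a time, the count of members called, here with Cpn2 included, changed as follows. The calls of Cpn2 between genotypes and between depots are counted here as a description only. In aPVAT between genotypes the count was 2 (Kng2 and Cpn2), and 1 under limma voom with library weights and with only the libraries of the groups compared. The gene lost was Kng2, so no member other than Cpn2 was called in those 2 settings. Between the depots it was 3 and, with the kininogens summed into 1 row, 2. In cKO it was 4 without aPVAT cKO 1, without tPVAT cKO 2, without mitochondrial genes and with a replicate block by number, Bdkrb2 being added (adjusted p 0.0494 and 0.0461 in the last 2). Total counts in place of TMM gave 4 in controls and 5 in cKO, a scaling which moves the median of all genes by 0.74 and 0.65. That scaling raised the share of higher calls from 51.7% to 91.2% and 90.6% between the depots and from 45.2% to 66.9% between genotypes in tPVAT. It lowered the share from 48.5% to 36.6% in aPVAT and from 20.1% to 9.5% in the interaction. Kinin list genes called in aPVAT between genotypes were 1, 5 with DESeq2 and 2 with a replicate block by number. Receptor differences that turned sign were those of Bdkrb1 between depots in controls (0.65 with total counts, 0.04 and 0.08 without aPVAT control 1 or 4, lowest −0.18) and between genotypes in aPVAT (0.19 without aPVAT cKO 1, lowest −0.29), and of Bdkrb2 between genotypes in aPVAT (0.2 without aPVAT cKO 1, 0 without aPVAT control 2, lowest −0.46) and in the interaction (−0.02 without aPVAT cKO 3, highest 0.63). None of these passed. For Bdkrb2 between the depots of cKO, limma voom with weights gave 0.5 (adjusted p = 0.168). Between the depots of controls Cstb gave 0.52 with total counts. The cause was not tested. With a library left out, Kng2 ranged from −1.21 to −0.93 in tPVAT and from −2.58 to −1.86 in aPVAT, and the Cpn2 interaction from −2.95 to −2.46. Replicate numbers were not shown to pair the samples: same-numbered tPVAT and aPVAT libraries correlated in their deviations at −0.11 to 0.323. A replicate block moved the calls over all genes from 2367 to 2392 in tPVAT and from 301 to 312 in aPVAT. Depth limits Cpn1 and Bdkrb1, with at most 7 and 16 counts a library.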
